A study of Homo sapiens with 6 samples.

Results

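The multidomain members of the BCL2 family were followed in MDA-MB-231 cells that had been given DNAJC12 or an empty vector. The 8 genes were taken by symbol from a count table of 58735 genes. They are the guardians BCL2, BCL2A1, BCL2L1, BCL2L2 and MCL1, which oppose cell death, and the effectors BAX, BAK1 and BOK, which carry it out. MDA-MB-231 is an established human triple-negative breast cancer line. Of the 6 libraries, 3 are from cells transfected with DNAJC12v, labelled as DNAJC12 overexpression, and 3 from cells that received the empty vector as control. Every library came from the same line. The labels do not say whether transfection was transient or stable, whether clones were picked, or whether replicates were separate cultures. The p-values therefore measure the spread between these libraries alone, and that spread may be technical.

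BCL2 family proteins control the permeability of the outer mitochondrial membrane. In a healthy cell the guardians hold BAX and BAK1, or the short BH3-only proteins that trigger them, in a groove on their surface. When BH3-only proteins outnumber the guardians, BAX and BAK1 assemble into pores, cytochrome c leaves the mitochondrion and caspases are switched on. Breast cancer cells are known to lean mainly on BCL2L1 and MCL1, whose products are BCL-XL and MCL-1. BCL2A1 is best known as an NF-kB target in blood cells.

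The family resemblance can be read in the coding sequence. The BH1 region, one of the segments that build the groove, has a core that is nearly invariant, and it was searched for as the 4 consecutive codons AAN, TGG, GGN and NGN. In frame and on the coding strand, that run of codons was present in 7 of the 8 genes and in 0.563% of 19523 protein-coding genes of GENCODE 29 (GRCh38). These stretches are given 5′ to 3′ with the matched codons in capitals. The likeness of the capitals was set in part by the search, while the surrounding bases were free to differ.
BCL2: gacggggtgAACTGGGGGAGGattgtggcc
BCL2A1: ggcatcattAACTGGGGAAGAattgtaacc
BCL2L1: gatggggtaAACTGGGGTCGCattgtggcc
BCL2L2: gggggccccAACTGGGGCCGCcttgtagcc
MCL1: ggcgtaacaAACTGGGGCAGGattgtgact
BAX: ggcaacttcAACTGGGGCCGGgttgtcgcc
BAK1: agtggcatcAATTGGGGCCGTgtggtggct
No match was found in the coding sequence of BOK. BCL2A1 had the shortest coding sequence, with 525 bases, and MCL1 the longest, with 1050.

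The libraries held 17967283 to 18887497 counts. DNAJC12 was read 522, 523 and 492 times in DNAJC12 libraries 1 to 3, and 1, 0 and 0 times with the empty vector. Markers of the line were mixed: VIM, CD44 and AXL were abundant, at 568 to 2384 CPM (the count scaled by library size) in every library. ESR1 and PGR had at most 0.160 CPM, but ERBB2, also fixed as low, had 61.4 to 121 CPM. SPARC, fixed as a marker that should be high, had 0.902 to 2.72 CPM, and the luminal keratin KRT8 had 1398 to 2857 CPM. EGFR (69.6 to 174 CPM) and CAV1 (276 to 772 CPM) were higher in every DNAJC12 library than in any control. Neither was called (adjusted p = 0.155 and 0.146 in the edgeR test). DNAJC12 library 2 stood apart from libraries 1 and 3. On the first principal component, with 49.9% of the variance, it lay at 46.8, against -64.0 and -29.6 for DNAJC12 libraries 1 and 3 and -1.85, 37.6 and 11.0 for the empty vector. The members' fold changes and the calls in related gene lists are therefore also given without it.

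Of the 8 genes, 1 changed: BCL2A1 fell, and no other member passed the test in either direction. All 8 had enough reads to be tested. A gene is called changed when its p in edgeR's quasi-likelihood test, adjusted by Benjamini-Hochberg over the 14520 tested genes, is under 0.05. That held for 1.25% of the tested genes, 0.661% lower and 0.585% higher. The groups did not overlap in 1 of the 8 genes, BCL2A1, against 20.1% of tested genes (10.8% lower and 9.26% higher). The median log2 fold change was 0.02 over the 8 genes and 0.05 over all tested genes.

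In level per transcript length, BCL2L1 led the family in every library. FPKM, which scales a count by gene length and library depth, was 187 ± 7.11 (SD, n = 3) for BCL2L1 with the empty vector. Its average over all libraries was above 98.3% of tested genes. BAK1 (64.4 ± 8.16 FPKM), BAX (62.6 ± 8.91 FPKM) and MCL1 (54.9 ± 2.77 FPKM) came next there. Their library values overlapped from neighbour to neighbour, so their order was not set. BOK followed with 30.2 ± 3.68 FPKM, below every MCL1 value with the empty vector, and BCL2L2 with 7.36 ± 0.666 FPKM. BCL2A1 stood at 4.96 ± 2.13 FPKM, a range that overlapped that of BCL2L2. BCL2, the founding member, came last with 0.338 ± 0.0801 FPKM, and its average over all libraries was above only 12.3% of tested genes.

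With DNAJC12 the order was similar, but most ranges were wider. BCL2L1 again stood clear of the rest, at 200.5 ± 60.5 FPKM (SD, n = 3). BAX (64.4 ± 20.7 FPKM), BAK1 (62.5 ± 24.2 FPKM), MCL1 (61.6 ± 21.4 FPKM) and BOK (29.6 ± 11.5 FPKM) formed a run in which each overlapped its neighbour. BCL2L2 kept a narrow range, with 7.33 ± 0.145 FPKM. At the foot of the order BCL2 (0.396 ± 0.186 FPKM) and BCL2A1 (0.202 ± 0.213 FPKM) overlapped, with the mean of BCL2A1 now below that of BCL2.

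**Figure D1:**
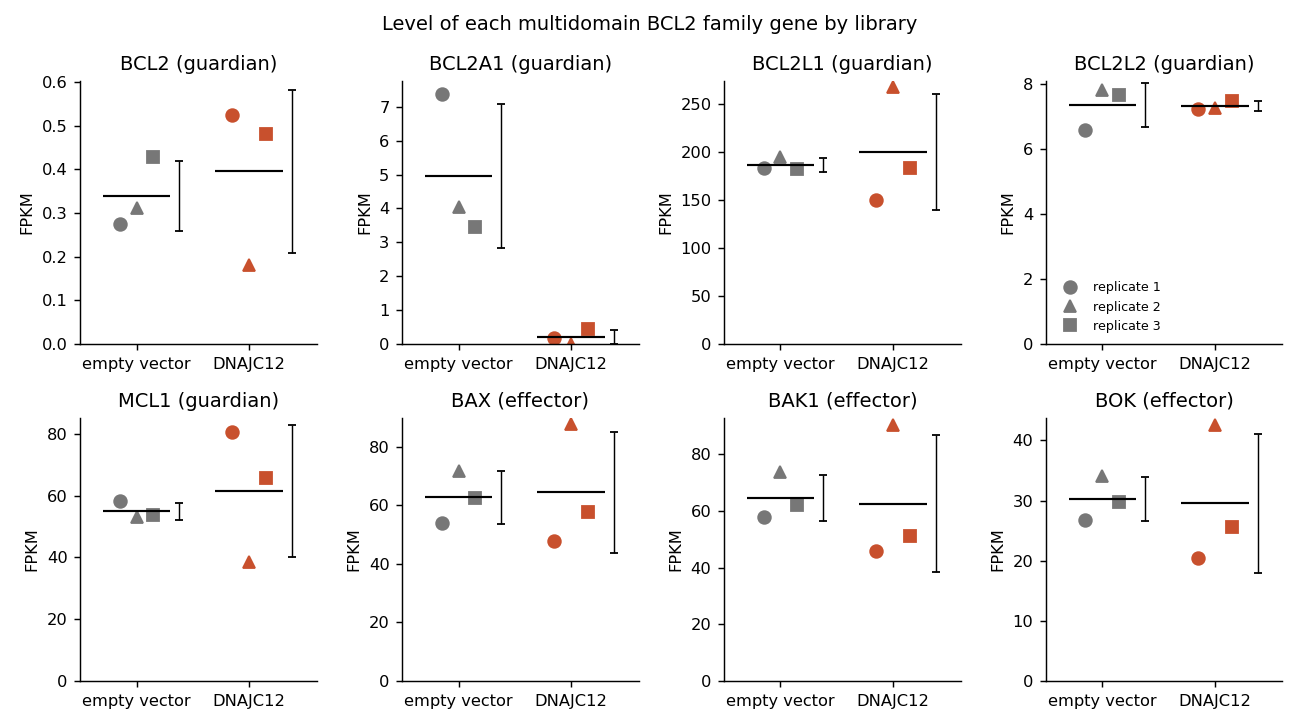
FPKM of each gene (vertical axes, from 0 and scaled per gene) in the 3 empty vector libraries (grey) and the 3 DNAJC12 libraries (orange); symbols give the replicate number, horizontal bars the group mean and the bracket the SD. BCL2A1 is the panel in which the groups do not overlap, at 3.46 to 7.40 FPKM against 0 to 0.425 FPKM, and the triangle of DNAJC12 library 2 lies furthest from the other two of its group for BCL2, BCL2L1, MCL1, BAX, BAK1 and BOK.

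BCL2A1 encodes a short guardian, also known as BFL-1 or A1, that binds several BH3-only proteins. The gene (ENSG00000140379) lies on the minus strand of chromosome 15, 79960889 to 79971446 in GRCh38, and overlaps no other annotated gene. It was read 4, 0 and 9 times in DNAJC12 libraries 1 to 3, and 152, 79 and 71 times in empty vector libraries 1 to 3. In CPM these were 0.200, 0 and 0.470 against 8.16, 4.39 and 3.78, so every DNAJC12 library lay below every empty vector library. The highest DNAJC12 value was well under the lowest control, and within the controls library 1 was about level with the other two added together.

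The log2 fold change of BCL2A1 was -4.51 ± 0.66 SE, with a 95% interval of -5.99 to -3.02 (adjusted p = 0.0140 in the edgeR test). The pooled counts, 13 against 302, corresponded to a level 23.0-fold lower with DNAJC12, and the exact binomial 95% interval of that ratio, which covers counting error only, was 13.3 to 43.8. At this depth a floor of 3 counts in a DNAJC12 library equals 0.150 to 0.190 CPM, so library 2, with 0 counts, allows up to 0.190 CPM. Without DNAJC12 library 2 the log2 fold change was -4.01, with an adjusted p of 0.000412. Without empty vector library 1, the highest control, it was -4.10 and the call was lost (adjusted p = 0.0931); 0 members, and 0.168% of genes, were then called. Over the 17 alternatives of the edgeR, DESeq2 and limma fits the direction was the same in 17, and the adjusted p ran from 6.23e-23 to 0.0931. The share of all genes called ran as widely. It was 1.21% with DESeq2 size factors, 3.13% in the DESeq2 test, 2.52% without a filter, and 1.3% when genes had to reach 1 CPM. Limma called 1.24%, or 0.0439% without a filter. It was 13.3% with a replicate block, 22.9% with that block and a correction for GC content, and 18.7% without both libraries numbered 2.

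Because BCL2A1 is known from blood cells, leukocyte markers were read in the same libraries. CD3E and MS4A1 were at 0 counts in all 6 libraries, and the pan-leukocyte gene PTPRC had at most 2 counts. The summed level of the leukocyte marker list was 14.2 to 17.0 CPM with the empty vector and 9.17 to 20.4 CPM with DNAJC12, most of it from CD14 and CSF1R. Of 3 endothelial markers, PECAM1 fell as well (log2 fold change -1.99, adjusted p = 0.0125 in the edgeR test). It was not called without DNAJC12 library 3 (adjusted p = 0.133) or empty vector library 1 (0.101) or 3 (0.0883), or by limma with no filter (0.109). VWF and CDH5 had at most 0.223 CPM in any library. The list's sum was 15.6 to 22.8 CPM with the empty vector and 4.02 to 5.81 CPM with DNAJC12, nearly all of it PECAM1. The sum of 4 fibroblast markers moved the other way, with 31.5 to 37.4 CPM in the controls and 51.6 to 80.8 CPM with DNAJC12. Most of it was PDGFRB (log2 fold change 1.07, adjusted p = 0.0630 in the edgeR test), while DCN and LUM had at most 0.751 CPM. COL1A1 went the opposite way to PDGFRB, with overlap (log2 fold change -0.56, adjusted p = 0.497 in the edgeR test). The part of these markers in the result was not tested. In bulk samples, fewer cells with BCL2A1 RNA and less of it per cell cannot be told apart.

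BCL2L1, which encodes the guardian BCL-XL, was the most abundant member. Its gene (ENSG00000171552) is on the minus strand of chromosome 20, 31664452 to 31723989. It had 506, 890 and 617 CPM in DNAJC12 libraries 1 to 3 and 614, 647 and 608 CPM in the controls. DNAJC12 library 2 was the highest of the 6 and library 1 the lowest, so the controls lay inside the DNAJC12 range. The log2 fold change was 0.11 ± 0.23 SE (95% interval -0.42 to 0.63, adjusted p = 0.883 in the edgeR test), an interval in fold of 0.749 to 1.55. Without DNAJC12 library 2 the value was -0.15. Gene counts do not separate the long from the short splice form of BCL2L1, whose products have opposite effects. The antisense gene ABALON overlaps BCL2L1, and the strand setting of the counting is not given, so their reads may be mixed. ABALON had 11.8, 26.0 and 14.9 CPM with DNAJC12 and 22.4, 23.7 and 26.1 CPM with the empty vector, far below BCL2L1.

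MCL1 encodes a short-lived guardian that is renewed constantly and removed by the proteasome. It lies on the minus strand of chromosome 1, 150574551 to 150579738 (ENSG00000143384). Its levels were 358, 169 and 292 CPM in DNAJC12 libraries 1 to 3 against 257, 232 and 236 CPM. DNAJC12 libraries 1 and 3 lay above all controls and library 2 below all of them. Over all libraries the log2 fold change was 0.18 ± 0.27 SE (95% interval -0.43 to 0.78, adjusted p = 0.826 in the edgeR test). Without DNAJC12 library 2 it was 0.43, with an adjusted p of 0.0501, just outside the threshold, in a fit that called 22.5% of its genes. The splice forms of MCL1, too, are summed in these counts.

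BCL2, on the minus strand of chromosome 18 (63123346 to 63320128, ENSG00000171791), encodes the guardian after which the family is named. It was barely expressed, with 125, 34 and 110 counts in DNAJC12 libraries 1 to 3 and 61, 66 and 95 in the controls. As with MCL1, libraries 1 and 3 were the highest of the 6 and library 2 the lowest. The log2 fold change was 0.24 ± 0.40 SE (95% interval -0.66 to 1.15, adjusted p = 0.843 in the edgeR test), the widest interval among the members that did not pass, and 0.58 without DNAJC12 library 2 (adjusted p = 0.138).

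BCL2L2 encodes BCL-w, a guardian close to BCL-XL, on the plus strand of chromosome 14 (23298790 to 23311759, ENSG00000129473). Among the members its values varied least over the DNAJC12 libraries, at 30.8, 30.5 and 31.9 CPM with DNAJC12 and 28.0, 32.8 and 32.3 CPM with the empty vector. The log2 fold change was 0.00 ± 0.20 SE, with a 95% interval in fold of 0.731 to 1.37 (adjusted p = 0.999 in the edgeR test). A read-through gene, BCL2L2-PABPN1, shares sequence with it and had 6 to 16 counts a library against 482 to 614 for BCL2L2. HOMEZ and PPP1R3E overlap BCL2L2 on the other strand, with 26 to 47 and 79 to 127 counts.

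The effectors moved alike from library to library, and BCL2L1 had the same highest and lowest library. BAX, which waits in the cytosol and inserts into the mitochondrial membrane, is on the plus strand of chromosome 19 (48954815 to 48961798, ENSG00000087088). It had 126, 227 and 152 CPM in DNAJC12 libraries 1 to 3 and 141, 186 and 162 CPM in the controls. BAK1, which encodes the effector BAK that resides in that membrane, is on the minus strand of chromosome 6 (33572547 to 33580293, ENSG00000030110), with 103, 200.2 and 115 CPM against 129, 163 and 138 CPM. BOK, a relative that can act without BH3-only proteins and is kept low by degradation at the endoplasmic reticulum, is on the plus strand of chromosome 2 (241551424 to 241574138, ENSG00000176720). BOK had 56.4, 115.6 and 70.6 CPM against 73.4, 92.5 and 81.3 CPM. In all 3 genes, as in BCL2L1, DNAJC12 library 2 was the highest of the 6 and DNAJC12 library 1 the lowest. The order was not kept after the correction for GC content described below. In corrected log2 CPM, BAK1 was lowest in DNAJC12 library 3 (6.99) and BOK highest in empty vector library 1 (6.48).

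The log2 fold changes of the effectors were close to 0, at 0.05 ± 0.25 SE for BAX, -0.04 ± 0.27 SE for BAK1 and -0.03 ± 0.28 SE for BOK. Their 95% intervals in fold were 0.696 to 1.53, 0.637 to 1.49 and 0.639 to 1.51, so changes within these bounds could not be told from none. The adjusted p in the edgeR test was 0.957, 0.967 and 0.979. Without DNAJC12 library 2 the values were -0.23, -0.39 and -0.38, with adjusted p of 0.309, 0.0785 and 0.115. BAK1 and BOK then lay below all controls in both remaining DNAJC12 libraries, and MCL1 and BCL2 above them. With BCL2A1 this made 5 of 8 members without overlap, against 51.7% of tested genes in the same libraries.

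**Figure D2:**
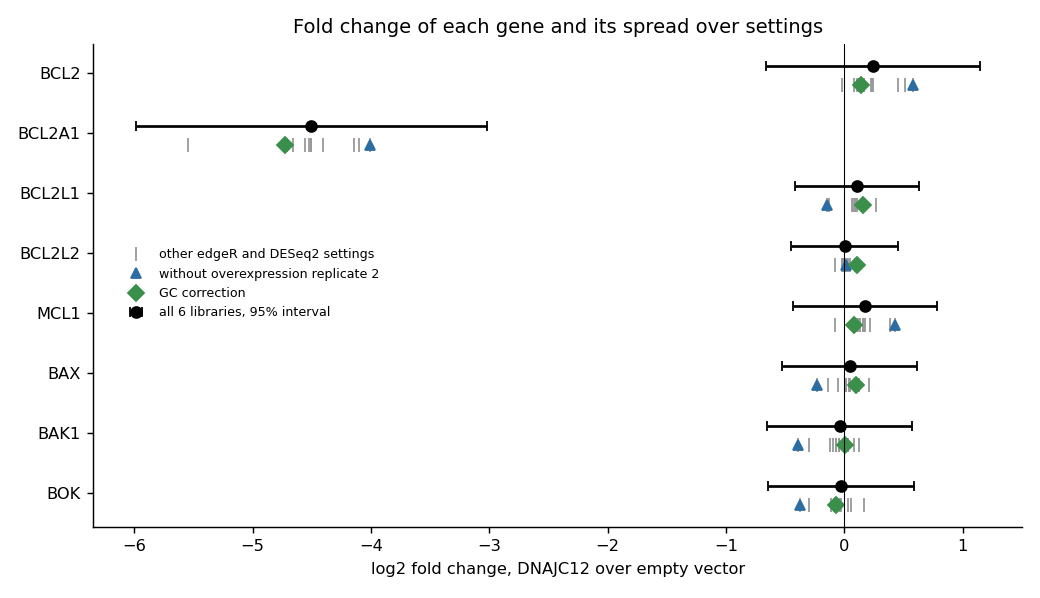
Log2 fold change of each gene, DNAJC12 over empty vector (horizontal axis), with all 6 libraries and its 95% interval (black), without DNAJC12 library 2 (blue triangles), after a correction for GC content (green diamonds) and under the other count-based settings (grey ticks). The interval of BCL2A1 ends at -3.02 and those of the other 7 genes span 0; without DNAJC12 library 2, MCL1 and BCL2 lie at 0.43 and 0.58 and BAK1 and BOK at -0.39 and -0.38.

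How far DNAJC12 library 2 departed from its group ran in parallel with the base composition of the genes. The gap between its log2 CPM and the mean of libraries 1 and 3 was -1.96 for BCL2A1, with transcripts of 40.3% GC. It was -1.44 for BCL2 and -0.94 for MCL1, both at 45.7% GC. At the other end it was 0.67 for BCL2L1 (56.2% GC), 0.87 for BAK1 (58.7%), 0.72 for BAX (60.4%) and 0.87 for BOK (65.8%). BCL2L2 was the exception, with a gap of -0.04 at 56.2% GC. The gap of BCL2A1, which had 0 counts in that library, depends on the prior count of 2 in log2 CPM. Pearson's r of gap and GC content was 0.952 over the 8 genes, which share the same 3 libraries, 0.922 over the 7 genes without BCL2A1, and 0.783 over 14518 tested genes. Among all tested genes the median gap was -1.09 in the fifth with the lowest GC content and 0.73 in the fifth with the highest. Empty vector library 2 departed from its group in the same directions for BCL2A1 (-0.33), BCL2 (-0.15) and MCL1 (-0.09), and for BAX, BAK1 and BOK (0.30, 0.29 and 0.26). BCL2L1 had a gap of 0.08 there, also in the same direction, and BCL2L2 a gap of 0.12, in the opposite direction.

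**Figure D3:**
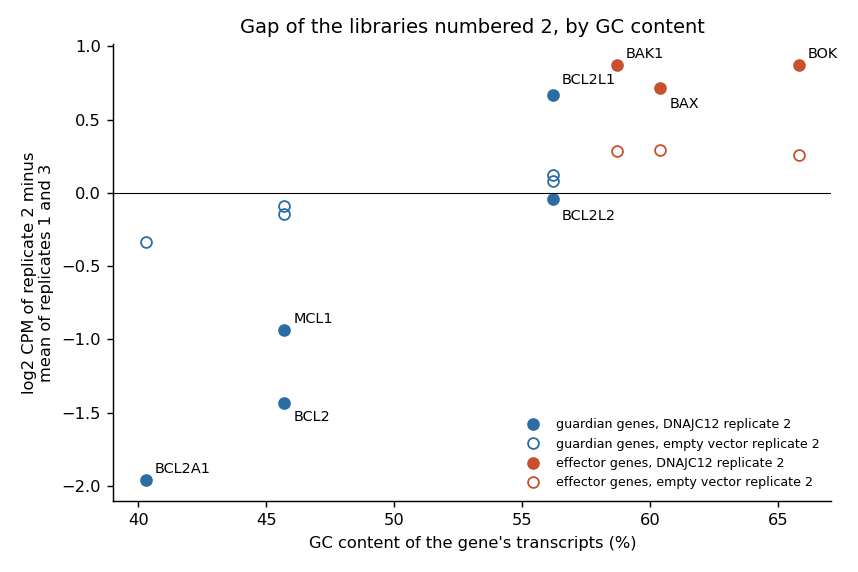
Difference in log2 CPM between a library numbered 2 and the mean of libraries 1 and 3 of its group (vertical axis) against the GC content of the gene's transcripts in percent (horizontal axis), for guardians (blue) and effectors (orange), with DNAJC12 libraries as filled and empty vector libraries as open circles. The filled points run from -1.96 for BCL2A1 at 40.3% GC to 0.87 for BOK at 65.8% GC.

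After the trend with GC content had been removed from each library, BCL2A1 was again the only member called. Its log2 fold change was -4.73, with an adjusted p of 0.000216, in a fit that called 20.0% of its genes. The corrected values of the other 7 genes lay between -0.07 for BOK and 0.15 for BCL2L1, with adjusted p of at least 0.292 in the edgeR test. BAX was higher in all 3 DNAJC12 libraries than in any control on this scale, at 7.35 to 7.45 against 7.27 to 7.34 in corrected log2 CPM, but its change of 0.10 did not pass (adjusted p = 0.414). Groups did not overlap on this scale in 37.8% of tested genes. The correction did not remove the whole gap of DNAJC12 library 2. Its corrected gap was -0.94 for BCL2, -0.91 for BCL2A1 and -0.43 for MCL1. For BCL2L2 the gap grew from -0.04 to -0.54, and for BCL2L1, BAX, BAK1 and BOK it was 0.17, 0.07, 0.28 and 0.14.

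Summed per library, guardian transcripts outweighed effector transcripts in every library, with BCL2L1 as the main part of the guardian sum. The guardian sum was 239, 314 and 257 FPKM in DNAJC12 libraries 1 to 3 and 255, 260.2 and 248 FPKM in the controls. The effector sum was 114, 220.4 and 135 FPKM against 138, 179 and 154 FPKM. The ratio of guardians to effectors was 1.81 ± 0.346 (SD, n = 3) with DNAJC12 and 1.64 ± 0.199 with the empty vector, and the groups overlapped. It was lowest in both libraries numbered 2, at 1.42 and 1.45, and highest in DNAJC12 library 1, at 2.09. The sums were also rescaled so that each library has the same total over genes (TPM). The guardian sum was then 746 ± 28.7 with DNAJC12 and 710 ± 15.3 with the empty vector, without overlap. The margin was narrow, with 721.4 in DNAJC12 library 2 and 720.1 in empty vector library 3, and the guardian sums in FPKM overlapped. Among single tested genes, the groups did not overlap in CPM in 20.1%. The effector sum was 422 ± 74.0 and 439 ± 60.1 TPM, with overlap. These sums count transcripts, and say nothing of protein.

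BCL2L1 made up 73.4 ± 1.66% of the guardian sum with the empty vector and 73.2 ± 11.3% with DNAJC12 (SD, n = 3). MCL1 supplied 21.6 ± 1.2% and 23.8 ± 10.8%. In DNAJC12 libraries 1 to 3 the share of MCL1 was 33.7, 12.3 and 25.6%, and that of BCL2L1 was 63.0, 85.4 and 71.2%, both lying on either side of the controls. BCL2A1 supplied 1.95 ± 0.826% in the controls and 0.0803 ± 0.0826% with DNAJC12, and these shares did not overlap. The make-up of the effector sum hardly moved: BAX held 38.9 to 42.9%, BAK1 38.1 to 41.8% and BOK 17.9 to 19.3% over the 6 libraries.

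**Figure D4:**
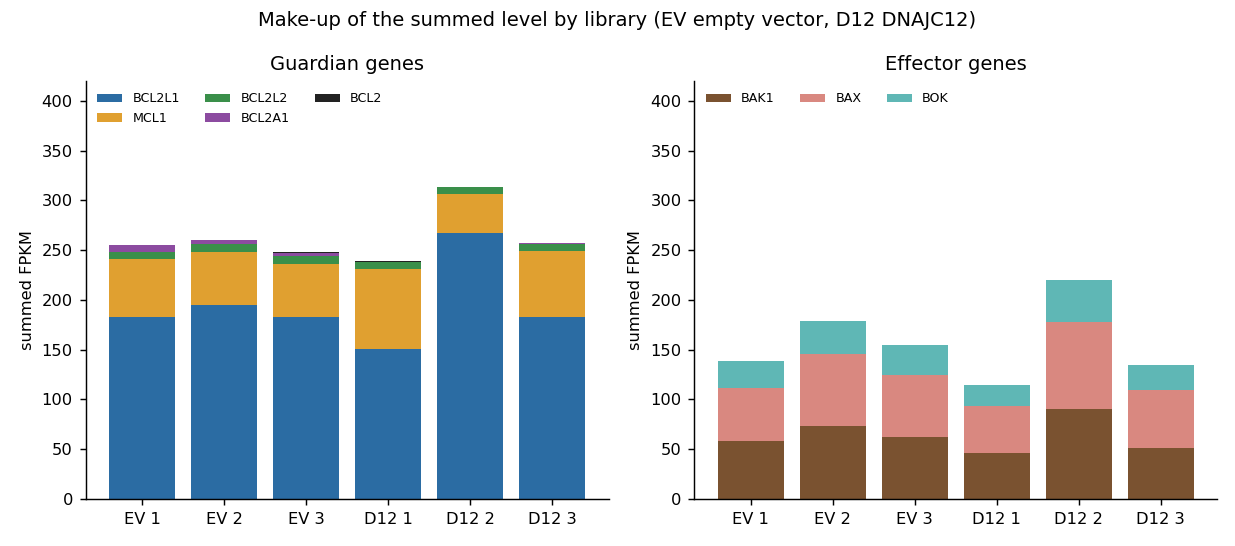
Summed FPKM (vertical axes, from 0) of the 5 guardians (left) and the 3 effectors (right) in empty vector libraries 1 to 3 (EV) and DNAJC12 libraries 1 to 3 (D12), divided by gene. BCL2L1 is the largest part of the guardian bars in every library, and the effector bar is tallest in DNAJC12 library 2, at 220.4 FPKM.

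The BH3-only genes, whose products the guardians bind, included 3 called genes. Of 8 BH3-only genes 7 were tested, and 2 rose, 1 fell and 4 did not pass, with a median log2 fold change of -0.06. Among all tested genes 1.25% were called. BMF, a BH3-only gene linked to detachment, had 23.7, 24.5 and 20.2 CPM in DNAJC12 libraries 1 to 3 and 7.73, 8.51 and 7.09 CPM in the controls. BBC3, which encodes PUMA and is a target of p53, had 70.4, 119 and 93.1 CPM against 19.2, 35.3 and 33.9 CPM. BIK moved the other way, with 3.21, 3.22 and 2.72 CPM against 7.46, 9.29 and 9.11 CPM. The groups did not overlap in any of the 3 genes. Of the 7 tested genes, 3 lay higher and 2 lower without overlap, against 20.1% of all tested genes. Their log2 fold changes were 1.55 ± 0.24 SE for BMF, 1.68 ± 0.30 SE for BBC3 and -1.50 ± 0.27 SE for BIK, and the edgeR adjusted p was 0.0172, 0.0312 and 0.0312. Without DNAJC12 library 3, or any 1 empty vector library, in fits that called 0.168 to 0.275% of genes, none of the BH3-only genes was called (lowest adjusted p 0.101 among these 3). Limma with no filter, which called 0.0439% of genes, called none of them either (lowest adjusted p 0.0847 among these 3). With DNAJC12 library 2 left out, 2 were called higher and 2 lower, where 22.5% of all genes were called. Whether the BH3-only and multidomain genes differ in how many changed was not tested.

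In 3 further lists no gene was called in the edgeR test of all 6 libraries with its filter and with neither block nor GC correction. The counts that follow are read against 14.1% of all tested genes with an unadjusted p under 0.05, 22.5% called with DNAJC12 library 2 left out and 20% called after GC correction. The DESeq2 test called 3.13% of all genes, edgeR with the replicate block 13.3% and edgeR with no filter 2.52%. Of 6 tested BCL2-like genes outside both classes none was called, the mitophagy receptor BNIP3 coming closest (log2 fold change -0.92, adjusted p = 0.0514 in the edgeR test), and 1 had an unadjusted p under 0.05. DESeq2 called 1 of them lower, as did edgeR with the replicate block. With DNAJC12 library 2 left out 1 was called higher and 2 lower, and the GC correction gave 1 in each direction. Of 18 genes of the mitochondrial death machinery, such as cytochrome c, APAF1 and the caspases, none was called in that test or by DESeq2. Of these, 13 had values below 0, with a median of -0.28, and 2 had an unadjusted p under 0.05. The 2 most abundant were the channel gene VDAC1, at -0.19, and the survivin gene BIRC5, also at -0.19. With DNAJC12 library 2 left out, 4 of these 18 were called lower and 1 higher, and the GC correction gave 5 lower and 1 higher. Of 14 tested genes for turnover and partners of the family, none was called in those 2 tests, and 1 had an unadjusted p under 0.05. Called higher were 4 of them with DNAJC12 library 2 left out, 4 after GC correction and 2 with the replicate block. With no filter 15 were tested and 1 was called higher, and none was called lower in these fits. The most abundant of these were IER3, a stress-response gene, at 0.30, and TPT1, which encodes a protein that binds MCL1, at -0.04.

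Transcription factors reported for guardian genes gave no call among 16 tested in the edgeR test, with a median log2 fold change of 0.22. An unadjusted p under 0.05 was found for 7 of them, against 14.1% of all tested genes. The DESeq2 test covered 17 of the listed factors and called 2 higher, where 3.13% of all genes were called. ATF4, which drives the integrated stress response, was the most abundant (0.74, adjusted p = 0.0923), and MYC the next (0.58, adjusted p = 0.192). Without DNAJC12 library 2, 6 of these factors were called higher and 1 lower, where 22.5% of all genes were called. The GC correction gave 7 called higher, where 20% were. Of 10 reference targets of NF-kB, the pathway known to drive BCL2A1, only the chemokine gene CCL20 was called. CCL20 fell from 7.94, 5.40 and 6.13 CPM to 1.25, 0.948 and 1.72 CPM (log2 fold change -2.30, adjusted p = 0.0125 in the edgeR test). The call was lost without empty vector library 1 (adjusted p = 0.0931) or 3 (0.0778) or DNAJC12 library 3 (0.0819), and by limma with no filter (0.0803). The median of the 10 was -0.06, with 5 above and 5 below 0. The feedback inhibitors NFKBIA, TNFAIP3 and NFKBIE stood at -0.15, 0.03 and 0.23. RELB had the largest rise of the 10, at 0.87 (adjusted p = 0.178 in the edgeR test). After GC correction 3 of the 10 rose and 3 fell, in the fit that called 20% of all genes, and with DNAJC12 library 2 left out 1 rose and 1 fell. BIRC3 and RELB belong to 2 of these lists each.

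**Figure D5:**
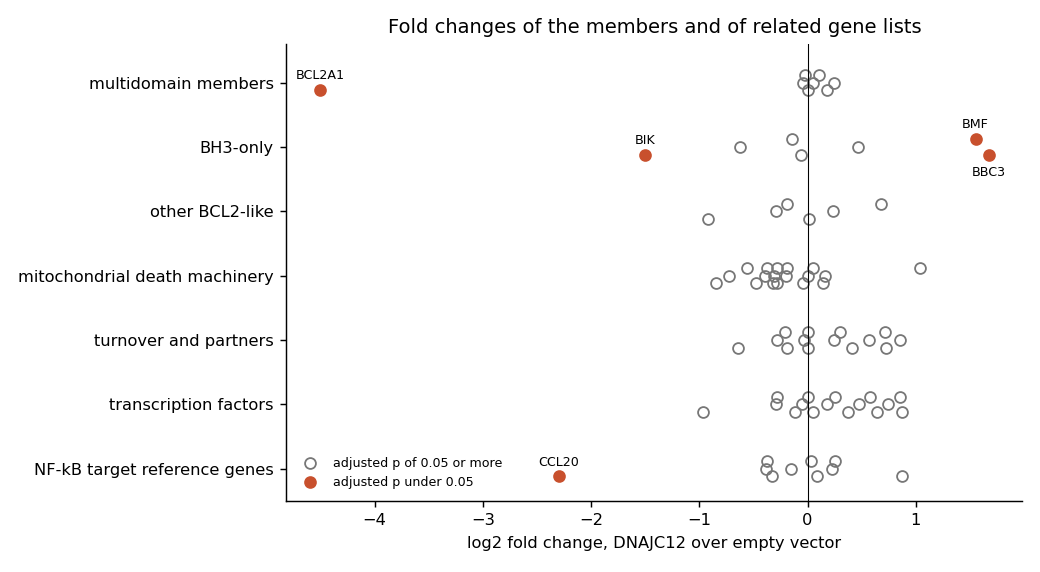
Log2 fold change, DNAJC12 over empty vector (horizontal axis), of every tested gene of the family and of 6 related lists (rows), with filled orange points for an adjusted p under 0.05 in the edgeR test. The called genes are BCL2A1 at -4.51, CCL20 at -2.30, BIK at -1.50, BMF at 1.55 and BBC3 at 1.68.

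Genes with the most similar profile over the 6 libraries were sought for 3 members, by Pearson correlation of log2 CPM among 9684 protein-coding genes that averaged 5 CPM or more. For BCL2A1 these were WDR76 (r = 0.999), LSG1 (0.993) and TMEM14A (0.993), of which none was called. The size of the change was not shared: WDR76 went from 22.9, 20.1 and 20.4 CPM to 13.3, 10.8 and 14.6 CPM. For MCL1 they were SPAG1, PM20D2 and MBP (r from 0.996 to 0.998), and for BCL2L1 they were SRM, SCAMP3 and SHISA5 (r from 0.998 to 0.999). Correlations this high were common: 72 genes reached 0.95 with BCL2A1, 613 with MCL1 and 453 with BCL2L1. The points share the 6 libraries and their trend with GC content, so these values are descriptions.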

How the data were processed

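RNA sequencing covered 6 libraries, 3 per group, grouped and numbered per the labels. The authors deposited counts of reads per gene and FPKM values per gene. HISAT2 2.0.5 and the build hg19 are named, per the submitters' processing notes. Identifiers, starts, ends and strands of all 58735 genes equal GENCODE 29 on GRCh38, so coordinates are GRCh38. Which program counted reads, and whether by strand, is not given in the sources used here. Deposited FPKM equalled count over length over 1 depth per library, 0.854 to 1.10 times its total.

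Counts were tested with edgeR 4.0.16 (TMM, filterByExpr with minimum count 10 and total 15, robust quasi-likelihood fit) in R 4.3.3, with Benjamini-Hochberg adjustment over 14520 genes and a threshold of 0.05. CPM used TMM-scaled library sizes. SE is the fold change over the root of F. Principal components and correlations used log2 CPM with a prior count of 2. The steps were tested on simulated counts with 200 changed genes. The edgeR test recovered 36% of 2-fold and 91% of 4-fold changes, and 7.3% of its calls were false. The simulated counts had neither a trend with GC content nor a library that departed from its group. These rates therefore need not hold for the deposited libraries.

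Alternatives were DESeq2 1.42.0 size factors or its Wald test, no filter, 1 CPM in 3 libraries, a replicate block, a GC correction (loess, span 0.3, of each library's log2 CPM against the mean), leaving out libraries, and limma 3.58.1 on log2 FPKM with pseudocounts of 1 or 0.1, with or without a filter of 0.5 FPKM in 3 libraries. A pseudocount understates changes of low genes. GC content came from GENCODE 29 transcripts.

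The members, gene lists and alternatives were chosen with earlier results of these data known. Named genes are the members, DNAJC12, up to 3 called genes per list and direction or else the 2 most abundant, the 3 most correlated genes of 3 members, and overlapping genes. BNIP3, NFKBIA, TNFAIP3, NFKBIE, RELB and the markers were named after their values were seen. One marker gene is not reported here. A planned comparison of protein sequences was not made.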

Additional observations from a re-analysis of the deposited data

How the results depend on the processing

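BCL2A1 was lower with DNAJC12 in all 17 alternatives and called in 15. The call was lost without empty vector replicate 1 and by limma on log2(FPKM + 1) with no filter (log2 difference -2.27, adjusted p = 0.0799), and in both cases 0 members were called. Leaving out 1 library at a time gave 0 to 1 called members and values of -5.55 to -4.01 for BCL2A1, -0.017 to 0.58 for BCL2, -0.15 to 0.27 for BCL2L1, -0.075 to 0.033 for BCL2L2, -0.075 to 0.43 for MCL1, -0.23 to 0.21 for BAX, -0.39 to 0.13 for BAK1 and -0.38 to 0.17 for BOK. No other member was called under any alternative. BCL2 failed the FPKM filter and has no value in those 2 fits.

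Signs of members near 0 turned in other settings as well. BCL2L2 had -0.0019 with DESeq2 size factors, -0.0060 in the DESeq2 test, -0.022 with no filter, -0.0012 with the 1 CPM filter, -0.0024 by limma with a pseudocount of 1, with or without the filter, and -0.0023 with 0.1. BAK1 had 0.0077 after GC correction and 0.0023 with the replicate block added to it. Without both libraries numbered 2, BCL2L1 and BAX had -0.13 and -0.14.

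The number of genes called, 181 (85 higher, 96 lower), was 523 (265 and 258) with DESeq2, 688 (366 and 322) with no filter, 1937 (1011 and 926) with the replicate block, 2903 (1484 and 1419) after GC correction, 3326 (1695 and 1631) with both, 2754 (1514 and 1240) without both libraries numbered 2, and 12 (8 and 4) by limma with no filter. Leaving out 1 library gave 25 to 3366 (15 to 1806 higher, 6 to 1560 lower); the cause was not tested. Same-numbered libraries deviated together with r of 0.448, 0.585 and 0.0335. DNAJC12 libraries 1 and 2 correlated best with the control of the same number, and DNAJC12 library 3 with empty vector library 1 (0.225). Deviations from the mean of 3 libraries depend on each other, so whether the libraries were paired cannot be told from these values.

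The ratio of guardians to effectors was 2.66 with DNAJC12 and 2.35 with the empty vector from CPM, and 1.35 and 1.28 without MCL1. It rests on BCL2L1, with 73.2% and 73.4% of the guardian FPKM sum, and was not computed without that gene. Leaving out 1 library gave 1.67 to 2.0 and 1.53 to 1.73. With 13 counts of BCL2A1 in the DNAJC12 group, depth limits how well its remaining level is known.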
